A study of Homo sapiens with 6 samples.

Results

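The genes described here are 10 genes of the vascular endothelial growth factor (VEGF) system in SCC90 cells: the ligands VEGFA, VEGFB, VEGFC and PGF, the receptor kinases FLT1, KDR and FLT4, the co-receptors NRP1 and NRP2, and the adhesion receptor PECAM1. They were 10 of the 40488 genes in the deposited table, found by their symbols, and all 10 had enough counts to be tested. The list was chosen by measured values of these same libraries, because KDR, PECAM1, NRP1 and NRP2 were higher after silencing of ΔNp63. The fold changes of the members are therefore given as a description with no p-value, and nothing is supported with them.

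SCC90 cells are an established line grown from a tumour of the oropharynx that carried HPV16, and ΔNp63 is the N-terminally truncated form of the transcription factor p63 that marks basal squamous cells. The siCTRL group held 3 libraries of SCC90 cells transfected with a scrambled siRNA, and the siDNp63 group held 3 libraries of SCC90 cells transfected with an siRNA against ΔNp63. The labels give 10 nM of the ΔNp63 siRNA, while the methods of the study give another concentration, and RNA was taken 72 h after transfection. Poly(A) RNA was sequenced, and all results are of 1 cell line and of 1 siRNA sequence against ΔNp63, so effects of that sequence on other transcripts cannot be told apart from those of silencing.

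VEGF ligands are secreted proteins that bind receptor tyrosine kinases on the cell surface. FLT1 (VEGFR1) binds VEGFA, VEGFB and PGF, KDR (VEGFR2) is the main signalling receptor for VEGFA, and FLT4 (VEGFR3) binds VEGFC. The neuropilins bind both VEGF ligands and class 3 semaphorins, and in blood vessels these genes are best known from endothelial cells, where PECAM1 (CD31) is a junction protein and a common vessel marker. Several of them are also found on carcinoma cells.

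Promoter sequences are shown for 3 of the members that were higher in siDNp63 (KDR, FLT1 and VEGFC) and for VEGFB, a ligand whose groups overlapped, so that the DNA in front of members with unlike fold changes can be compared. Of the 10 members, 6 had an entry in the RefSeq promoter table of GRCh38.p14 (VEGFB, VEGFC, PGF, FLT1, KDR and NRP2), while VEGFA, FLT4, NRP1 and PECAM1 had none. Each sequence runs from 250 to 21 bases before the annotated start site, 5′ to 3′ on the strand of the gene, and the capitals mark GC boxes (GGGCGG on either strand) and, in FLT1, a TATA box (TATAAA).
KDR, chr4:55125616-55125845, minus strand: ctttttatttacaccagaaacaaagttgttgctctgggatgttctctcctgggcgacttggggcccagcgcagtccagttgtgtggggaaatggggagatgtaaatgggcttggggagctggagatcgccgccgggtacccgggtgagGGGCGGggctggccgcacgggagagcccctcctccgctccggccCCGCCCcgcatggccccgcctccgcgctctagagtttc
FLT1, chr13:28495149-28495378, minus strand: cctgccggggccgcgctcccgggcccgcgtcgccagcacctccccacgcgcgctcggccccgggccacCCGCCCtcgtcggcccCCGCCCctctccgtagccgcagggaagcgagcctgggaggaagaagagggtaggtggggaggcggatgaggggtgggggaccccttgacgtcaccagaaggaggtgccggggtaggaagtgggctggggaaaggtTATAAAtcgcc
VEGFC, chr4:176792943-176793172, minus strand: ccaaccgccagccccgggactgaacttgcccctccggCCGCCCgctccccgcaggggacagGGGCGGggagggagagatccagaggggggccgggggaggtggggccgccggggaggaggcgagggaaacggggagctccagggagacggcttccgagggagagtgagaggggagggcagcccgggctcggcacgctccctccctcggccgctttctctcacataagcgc
VEGFB, chr11:64234334-64234563, plus strand: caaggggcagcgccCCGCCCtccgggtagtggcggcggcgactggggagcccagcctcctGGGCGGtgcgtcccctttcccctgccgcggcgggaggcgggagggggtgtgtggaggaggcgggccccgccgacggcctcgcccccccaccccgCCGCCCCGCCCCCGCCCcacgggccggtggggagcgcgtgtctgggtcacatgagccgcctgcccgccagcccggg
All of these windows were rich in G and C, with a GC content of 64.3% for KDR, 73.0% for FLT1, 74.3% for VEGFC and 81.7% for VEGFB, where the median of 35116 promoters in the table was 57.8%. They held 16, 23, 20 and 28 CG pairs in the same order, against a median of 9. The GC box, the recognition sequence of Sp1-like factors, was found 2 times each in KDR, FLT1 and VEGFC and 5 times in VEGFB, and 40.0% of all promoters held at least 1.

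The core pattern of a p53 family site (the letters CNNG repeated after any 6 bases, searched on both strands) occurred 3 times each in the KDR, FLT1 and VEGFC windows and 2 times in VEGFB. The windows not shown held 4 in NRP2, another higher member, and 4 and 7 in the windows of PGF, a member whose groups overlapped. These PGF windows share part of their bases, so some of the occurrences were counted in both. The core is a loose pattern, present in 66.0% of all promoters and 3 or more times in 27.7%. In KDR 2 of its 3 occurrences overlapped a GC box at 58 to 53 bases before the start site. In FLT1 1 of its 3 occurrences overlapped the 2 GC boxes. The TATAAA letters were found in FLT1 alone among the 4 windows shown, beginning 31 bases before the start site, and 10.4% of all promoters held them. The letters ACGTG, the core of a hypoxia response element, were absent from the 4 windows and present in 17.0% of promoters. Neither TGANTCA (AP-1, 6.2% of promoters) nor CCGGAAG (ETS, 6.87%) was found in them. The higher members KDR, FLT1 and VEGFC thus shared GC boxes and loose p53 family cores with VEGFB, and these letter matches are a description and not evidence of binding.

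The targeted gene was checked first. TP63, counted over all its isoforms, had 42319, 44204 and 43700.1 normalized counts in the siCTRL libraries and 15520.1, 14474 and 15414 in the siDNp63 libraries, a log2 fold change of -1.52 (SE 0.04, adjusted p = 7.59e-07). Library totals lay between 35716277 and 52598831 expected counts. The library siDNp63 replicate 1, the shallowest, stood apart from the other libraries of its group on the second principal component (-39.1 against 25.6 and 24.8), so its values are pointed out where they differ. Of 17257 genes tested, 406 (2.35%) were higher and 295 (1.71%) lower past both thresholds used here, an adjusted p under 0.05 together with a log2 fold change above 1 or below -1. With scaling by library size alone this split was 341 higher and 382 lower, and the median over all genes was -0.109 in place of -0.023 on the log2 scale.

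Of the 10 members, 7 had a positive fold change with an adjusted p under 0.05 (18.4% of all genes tested), and 6 of these, VEGFC, FLT1, KDR, NRP1, NRP2 and PECAM1, also had a log2 fold change over 1 (2.35% of all genes). In those 7 every siDNp63 library lay above every siCTRL library, as did 24.7% of all genes. No member was lower with an adjusted p under 0.05 (15.2% of all genes) or past the fold threshold (1.71%). FLT4 was the 1 member whose siDNp63 libraries all lay below the siCTRL libraries (24.7% of all genes), and VEGFB and PGF overlapped between the groups. The median log2 fold change of the members was 1.25, against -0.02 over all genes, and since the same contrast chose the list, nothing is read from these counts. In RNA from a whole culture, a change in the number of cells that make a transcript and a change in the amount per cell cannot be told apart.

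**Figure D1:**
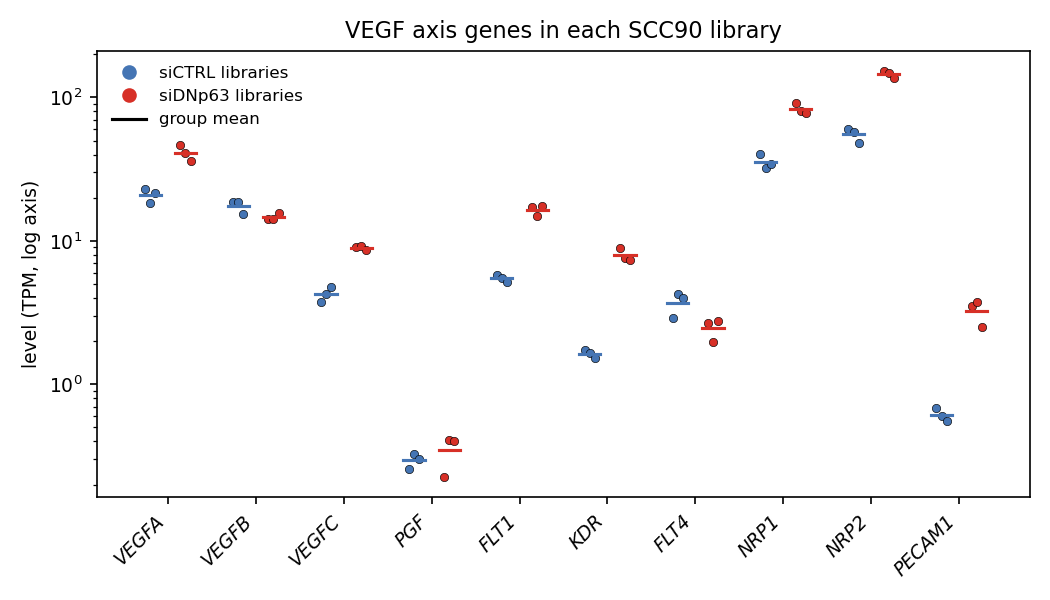
Level of each member in TPM (transcript abundance scaled by length and library depth, log axis) in the 3 siCTRL libraries (blue) and the 3 siDNp63 libraries (red), with a line at each group mean. NRP2 and NRP1 had the highest levels in both groups and PGF the lowest, and the groups were separate for KDR, FLT1, VEGFA, VEGFC, NRP1, NRP2, PECAM1 and FLT4.

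VEGFA, the main angiogenic ligand, lies at 43770184 to 43786487 on the plus strand of chromosome 6 (GRCh38). Its normalized counts, scaled for library depth, were 1259, 1259 and 1288 in siCTRL replicates 1, 2 and 3 and 2539, 2483 and 2505 in siDNp63 replicates 1, 2 and 3. The libraries of each group lay within a narrow band and the bands were far apart. The means were 1269 ± 16.4 (SD, n = 3) and 2509 ± 28.1 (SD, n = 3), a log2 fold change of 0.98 (SE 0.04), just under the fold threshold of 1.

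VEGFC, a ligand known for the growth of lymphatic vessels, lies at 176683538 to 176792922 on the minus strand of chromosome 4. It had 209, 248 and 264 normalized counts in siCTRL and 544, 569 and 511 in siDNp63, so that the lowest siDNp63 library was above the highest siCTRL library. The log2 fold change was 1.18 (SE 0.11), from 240.1 ± 28.0 to 541 ± 29.1 (SD, n = 3 each).

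The other two ligands behaved differently. VEGFB, a ligand of FLT1 linked to fatty acid uptake and to the heart, lies at 64234584 to 64239264 on the plus strand of chromosome 11, and PGF, the placental growth factor, at 74941834 to 74955626 on the minus strand of chromosome 14. VEGFB had 301, 315 and 257 normalized counts in siCTRL and 235, 261 and 277 in siDNp63, with a log2 fold change of -0.17 (SE 0.11). The groups overlapped, since siCTRL replicate 3 lay below siDNp63 replicates 2 and 3. PGF was close to the floor of the measurement, with 15.6, 19.8 and 21.4 normalized counts in siCTRL and 8.96, 20.5 and 21.0 in siDNp63. Only siDNp63 replicate 1, which held 7 PGF counts, was low, and the log2 fold change of -0.13 (SE 0.36) changed to 0.14 without that library.

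FLT1, a receptor kinase that also exists as a soluble form that traps ligand, lies at 28300346 to 28495145 on the minus strand of chromosome 13. It had 775, 815 and 766 normalized counts in siCTRL and 2597, 2323 and 2357.5 in siDNp63, a log2 fold change of 1.63 (SE 0.06). The groups were well separated, with siDNp63 replicate 1 the highest library. The deposited values are sums per gene, so the membrane and soluble forms of FLT1 were not distinguished here.

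KDR, the receptor that carries most VEGFA signalling in endothelium, lies at 55078481 to 55125595 on the minus strand of chromosome 4. Its normalized counts were 260.3, 237 and 232 in siCTRL and 1350.2, 1246 and 1170.2 in siDNp63. Every siDNp63 library held several times the count of every siCTRL library. The means were 243 ± 15.0 and 1255 ± 90.4 (SD, n = 3 each), a 5.15-fold difference (log2 fold change 2.36, SE 0.08), and 99.7% of all genes tested had a lower log2 fold change.

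FLT4, the receptor of VEGFC on lymphatic endothelium, lies at 180601506 to 180649624 on the minus strand of chromosome 5, and its values went the other way. It had 187, 183 and 182 normalized counts in siCTRL and 137, 155 and 160.2 in siDNp63, so that all siDNp63 libraries were lower, with siDNp63 replicate 1 the lowest. The log2 fold change was -0.29 (SE 0.11), a small difference beside those of FLT1 and KDR, and it is among the 3 members not past an adjusted p under 0.05.

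**Figure D2:**
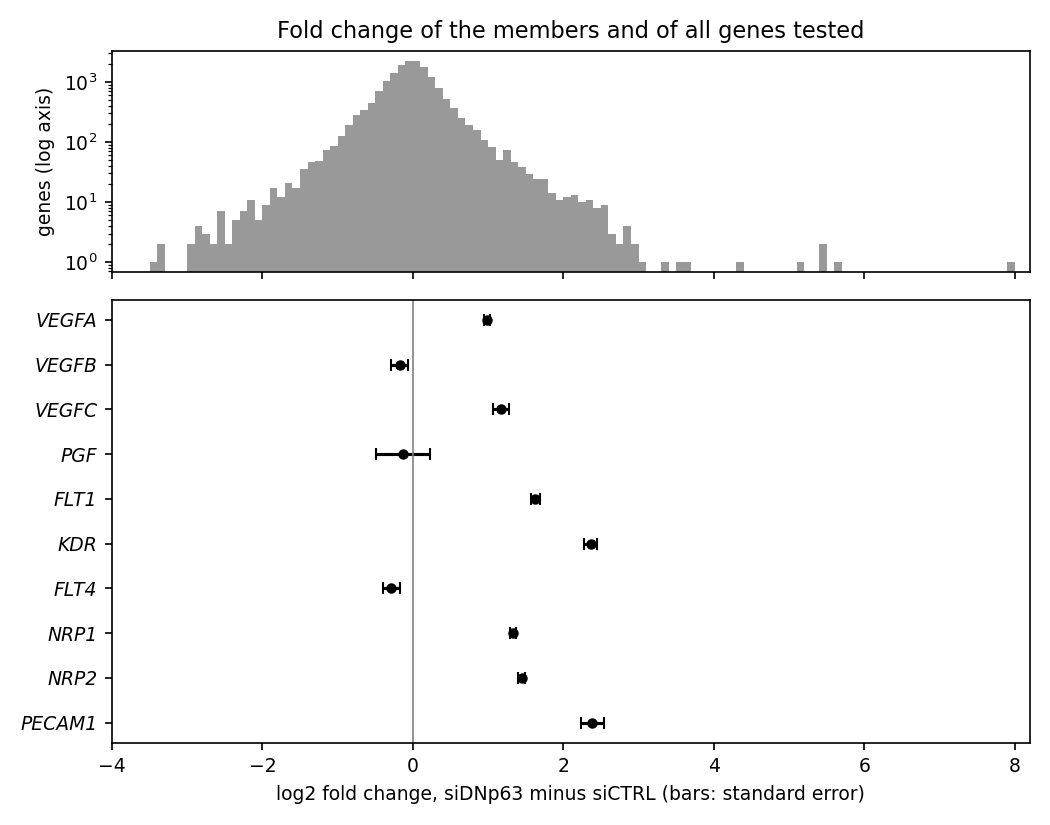
Log2 fold change of siDNp63 minus siCTRL for the members (lower panel, points with standard errors) beneath the distribution over all 17257 genes tested (upper panel, number of genes on a log axis). KDR (2.36) and PECAM1 (2.39) lay farthest to the right, 7 members lay at 0.98 or more, and VEGFB, PGF and FLT4 lay between -0.29 and -0.13.

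NRP1, which binds VEGFA and semaphorin 3A, lies at 33177492 to 33336262 on the minus strand of chromosome 10. It had 3818, 3641 and 3859 normalized counts in siCTRL and 9738, 9526 and 9234 in siDNp63, a log2 fold change of 1.33 (SE 0.04). Within each group the libraries were close, and the groups did not overlap.

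NRP2, which binds VEGFC and semaphorin 3F, lies at 205681990 to 205798133 on the plus strand of chromosome 2. It had 3733, 3707 and 3476 normalized counts in siCTRL and 10096, 9959.8 and 9716 in siDNp63, a log2 fold change of 1.45 (SE 0.04). As for NRP1, the siDNp63 libraries lay far above the siCTRL libraries.

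PECAM1 lies at 64319415 to 64413776 on the minus strand of chromosome 17 and had few counts before silencing. It had 33.8, 45.8 and 34.9 normalized counts in siCTRL and 203, 200.3 and 196 in siDNp63. The siDNp63 libraries were nearly alike and each was several times the highest siCTRL library. The means were 38.2 ± 6.59 and 199.8 ± 4.02 (SD, n = 3 each), a 5.23-fold difference (log2 fold change 2.39, SE 0.16), and 99.8% of all genes tested had a lower log2 fold change.

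Levels can be set side by side between genes in TPM, which is scaled by transcript length. In siCTRL the order of mean TPM was NRP2 (55.4), NRP1 (35.6), VEGFA (21.0), VEGFB (17.5), FLT1 (5.49), VEGFC (4.25), FLT4 (3.72), KDR (1.63), PECAM1 (0.614) and PGF (0.296). The neighbours VEGFA and VEGFB, and VEGFC and FLT4, had overlapping libraries, and the other neighbours did not. In siDNp63 the order was NRP2 (146), NRP1 (83.5), VEGFA (41.2), FLT1 (16.5), VEGFB (14.7), VEGFC (8.99), KDR (7.98), PECAM1 (3.25), FLT4 (2.47) and PGF (0.347). Here FLT1 overlapped VEGFB, VEGFC overlapped KDR, and PECAM1 overlapped FLT4. KDR thus stood below FLT4 in siCTRL and above it in siDNp63, while the neuropilins led the order in both groups.

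The make-up of the receptor pool is given as a description. KDR was chosen because it rose in this same contrast, so nothing is read from its larger share or from its ratio to FLT4. The summed TPM of FLT1, KDR and FLT4 was 10.4, 11.5 and 10.7 in siCTRL and 28.7, 24.4 and 27.6 in siDNp63. KDR made up 16.6%, 14.4% and 14.2% of that sum in siCTRL and 31.1%, 31.2% and 26.8% in siDNp63, and FLT4 made up 27.8%, 37.3% and 37.5% and then 9.31%, 8.09% and 9.99%. The libraries of the groups did not overlap for either share. FLT1 remained the most abundant kinase transcript, with a mean share of 50.8% ± 4.21 in siCTRL and 61.2% ± 1.86 in siDNp63 (SD, n = 3 each). The TPM ratio of KDR over FLT4 was 0.455 ± 0.125 and then 3.29 ± 0.588 (SD, n = 3 each). For FLT4 the siDNp63 mean was 0.664 of the siCTRL mean in TPM but 0.818 of it in normalized counts. The FLT4 share and this ratio thus also depend on how reads were divided among FLT4 isoforms.

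In the ligand pool the summed TPM was 43.1 ± 2.45 in siCTRL and 65.2 ± 4.44 in siDNp63 (SD, n = 3 each). VEGFA made up 50.5%, 44.0% and 51.5% of it in siCTRL and 66.2%, 63.3% and 59.4% in siDNp63. VEGFB made up 40.8%, 44.9% and 36.5% and then 20.5%, 21.9% and 25.7%. By TPM the ligand transcripts were thus split between VEGFA and VEGFB in siCTRL and were mostly VEGFA in siDNp63. The split depends on the scaling by length, as the mean normalized counts in siCTRL were 1269 for VEGFA and 291 for VEGFB. The share of VEGFC was 9.93% ± 1.63 and then 13.8% ± 0.728, and PGF stayed under 1% in every library. The summed TPM of the neuropilins was 90.9 ± 9.26 and 229.6 ± 14.5, and the share of NRP2 in it overlapped between the groups (60.8% ± 2.74 and 63.7% ± 1.20).

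**Figure D3:**
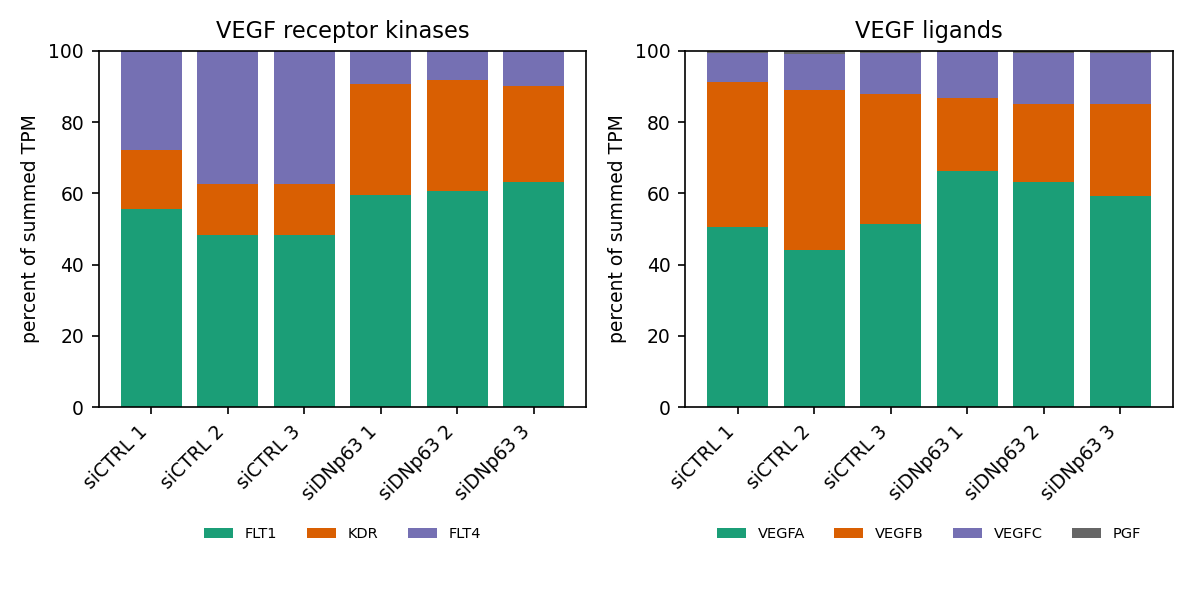
Share of each gene in the summed TPM of the VEGF receptor kinases (left) and of the VEGF ligands (right), in percent, with 1 bar per library. KDR took a mean of 15.1% of the receptor kinase sum in siCTRL and 29.7% in siDNp63, FLT4 took 34.2% and 9.13%, and VEGFA took 48.7% and 63.0% of the ligand sum.

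The ratio of expected counts to TPM follows the mean effective length of the transcripts that hold the reads, and so moves when reads pass between short and long isoforms. Between the groups the log2 difference of this ratio lay from -0.05 to 0.04 in the 8 members VEGFA, VEGFB, VEGFC, FLT1, KDR, NRP1, NRP2 and PECAM1. In FLT4 it was 0.23, with overlapping groups. Over the 6 libraries the ratio had a 1.73-fold range in FLT4, a 1.53-fold range in PECAM1 and a 1.30-fold range in VEGFA, wider than in 93.8%, 89.8% and 78.9% of 15617 genes, so the TPM levels of these 3 members also depend on how reads were divided among their isoforms. PGF was not used because 1 library held fewer than 10 counts.

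The surroundings of the receptors were examined with lists of genes written from general knowledge. Of 27 tested genes for VEGF processing, presentation and co-receptors, 9 rose and 3 fell at an adjusted p under 0.05 (18.4% and 15.2% of all genes), and the list median was 0.11 on the log2 scale, against -0.02 over all genes. CD44, a hyaluronan receptor whose longer isoforms can present VEGF to KDR, rose from 9438 ± 178 to 16412 ± 771 normalized counts (SD, n = 3 each, log2 fold change 0.80, adjusted p = 1.07e-05). MYO6, a motor that carries internalized receptors, rose by 0.52 (adjusted p = 9.07e-05). SDC2, a heparan sulphate proteoglycan, rose by 0.38 (adjusted p = 0.000373), and CCN2, a matrix protein that binds VEGFA, by 0.34 (adjusted p = 0.000845).

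Among 52 tested transducers of VEGF receptor signals, 12 rose and 12 fell (23.1% each, against 18.4% and 15.2% of all genes). The median log2 fold change was 0.00. FYN, a Src family kinase, rose by 0.85 on the log2 scale (adjusted p = 1.06e-05), and PPP3CA, the catalytic subunit of calcineurin, rose by 0.75 (adjusted p = 2.16e-05). The adaptors NCK1 and GRB2, which link receptor kinases to actin and to Ras, fell by 0.43 and 0.40 (adjusted p = 8.61e-05 and 0.000134). Changes among the transducers thus went in both directions, and their relation to the higher members was not tested.

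Neuropilins also bind class 3 semaphorins, which signal through plexins. Of 15 tested genes of this list 5 rose and 5 fell (33.3% each, against 18.4% and 15.2% of all genes). The median log2 fold change was 0.04, and only 3 rose in 5 of the 6 fits that left out 1 library. PLXNA4, a plexin that pairs with NRP1, had 296, 252 and 257 normalized counts in siCTRL and 1269.6, 1184 and 1285 in siDNp63, a log2 fold change of 2.21 (SE 0.08, adjusted p = 2.58e-06). PLXND1, a plexin of blood vessels, rose by 0.56 (adjusted p = 0.000896), and NRCAM, an adhesion molecule that associates with NRP2, by 0.51 (adjusted p = 0.00186). SEMA3C, a secreted semaphorin, fell by 0.48 (adjusted p = 0.000347).

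Hypoxia is a known inducer of VEGFA, so factors and targets of the hypoxia response were counted. Of 23 tested genes 8 rose and 6 fell (34.8% and 26.1%, against 18.4% and 15.2% of all genes). The median log2 fold change was 0.03. HIF1A, the oxygen-regulated transcription factor, rose by 0.30 (adjusted p = 0.00103), and LDHA, the lactate dehydrogenase subunit, by 0.37 (adjusted p = 0.000811). NDRG1 and SLC2A1, a stress-response gene and the glucose transporter GLUT1, fell by 0.76 and 0.86 (adjusted p = 6.92e-06 and 3.77e-05). With limma on log2 TPM 4 genes of this list rose in place of 8. The part of the hypoxia response in the level of VEGFA was not tested.

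Of 31 tested genes for other angiogenic factors and receptors, 12 rose and 7 fell (38.7% and 22.6%, against 18.4% and 15.2% of all genes). Past the fold threshold as well, 5 rose and 4 fell (2.35% and 1.71% of all genes). The genes named next are those with the smallest p, and all of them rose. The median log2 fold change was 0.16. EFNB2, a membrane ligand of Eph receptors that takes part in VEGF receptor uptake, rose from 3052 ± 95.6 to 7635 ± 103 normalized counts (SD, n = 3 each, log2 fold change 1.32, adjusted p = 1.27e-06). MET, the receptor of hepatocyte growth factor, rose by 1.03 (adjusted p = 1.07e-05), and PDGFB, a ligand that recruits pericytes, by 1.04 (adjusted p = 0.000555). THBS2, an inhibitor of angiogenesis, rose from 0.868, 2.08 and 4.51 normalized counts to 42.2, 29.1 and 24.8 (adjusted p = 0.000935), so its siCTRL level rests on a few counts.

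**Figure D4:**
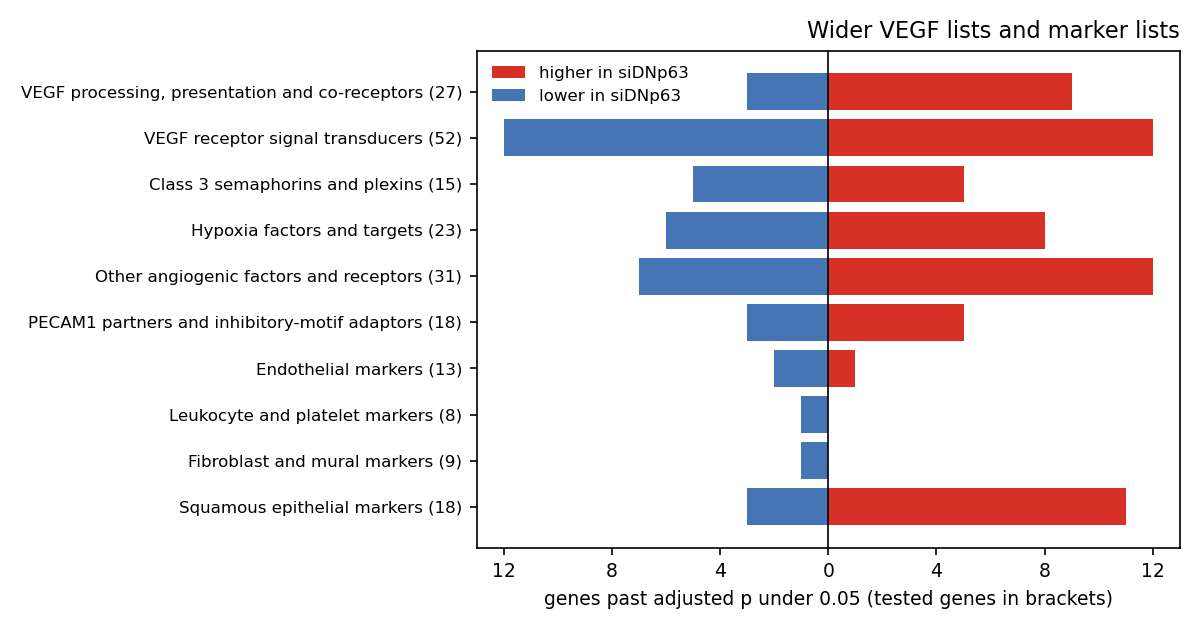
Number of genes past an adjusted p under 0.05 that were higher (red, right) or lower (blue, left) in siDNp63 in each list around the VEGF system, with the number tested in brackets. The signal transducers had 12 in each direction, the processing and co-receptor list 9 higher and 3 lower, and the endothelial list 1 higher and 2 lower. Over all genes tested 18.4% were higher and 15.2% lower.

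PECAM1 carries inhibitory motifs that bind phosphatases after phosphorylation by Src family kinases. Of 18 tested partners and adaptors 5 rose and 3 fell (27.8% and 16.7%, against 18.4% and 15.2% of all genes). The median log2 fold change was 0.11. FYN rose as given above, and LYN, another Src family kinase, rose by 0.81 (adjusted p = 0.000327). SRC itself fell by 0.77 (adjusted p = 0.000305), and INPP5D, the lipid phosphatase SHIP1, fell by 1.21 (adjusted p = 0.00142). The kinases of this list thus differed in direction. With limma on log2 TPM 3 genes of the list rose, and with scaling by library size alone 5 fell.

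Because KDR and PECAM1 are used as markers of endothelium, the other markers of that cell type were read in the same libraries. The summed TPM of 29 endothelial markers, without KDR and PECAM1, was 22.0 to 23.3 in siCTRL and 17.8 to 20.1 in siDNp63, and 21 of the 29 were under 1 TPM in every library. CDH5, the cadherin that defines endothelial junctions, had 15 expected counts over all 6 libraries, CLDN5 had 11, and CLEC14A and SOX18 had 1 each. ROBO4, SOX17, LYVE1 and ECSCR had none. These markers were thus at or near 0 in both groups, but other defining markers were measured, with 854 expected counts of MMRN2, 290 of ESAM and 280 of ERG over the 6 libraries, each overlapping between the groups. VWF (863 counts), EGFL7 (111 counts) and TEK (58 counts) had a higher TPM in every siDNp63 library than in any siCTRL library. For TEK the nearest libraries were at 0.0617 and 0.0611 TPM. PLVAP, ICAM2, CALCRL and ENG went the other way, with a lower TPM in every siDNp63 library. By normalized counts 24.7% of all genes tested were separate upward and 24.7% downward. The part of endothelial transcripts in the values of KDR and PECAM1 was not tested.

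Of the 13 endothelial markers with enough counts to be tested 1 rose and 2 fell (18.4% and 15.2% of all genes). The median log2 fold change was -0.08, against -0.02 over all genes. VWF, the von Willebrand factor, was at 0.356, 0.634 and 0.399 TPM in siCTRL and 1.01, 0.798 and 1.17 TPM in siDNp63 (log2 fold change 0.88, adjusted p = 0.00264). CALCRL and ENG, a peptide receptor and a TGF-β co-receptor, fell by 0.87 and 0.95 (adjusted p = 0.00779 and 0.0181), but only 1 marker fell with DESeq2, with limma on log2 TPM, with a replicate block, or without any 1 of siCTRL replicates 1 and 2 and siDNp63 replicate 2. With no low-count filter 2 endothelial markers rose. The 3 markers with the highest mean level were MMRN2 (5.72 TPM in siCTRL and 4.74 in siDNp63), PLVAP (5.53 and 4.21) and CALCRL (3.29 and 1.34), each with a lower mean in siDNp63.

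**Figure D5:**
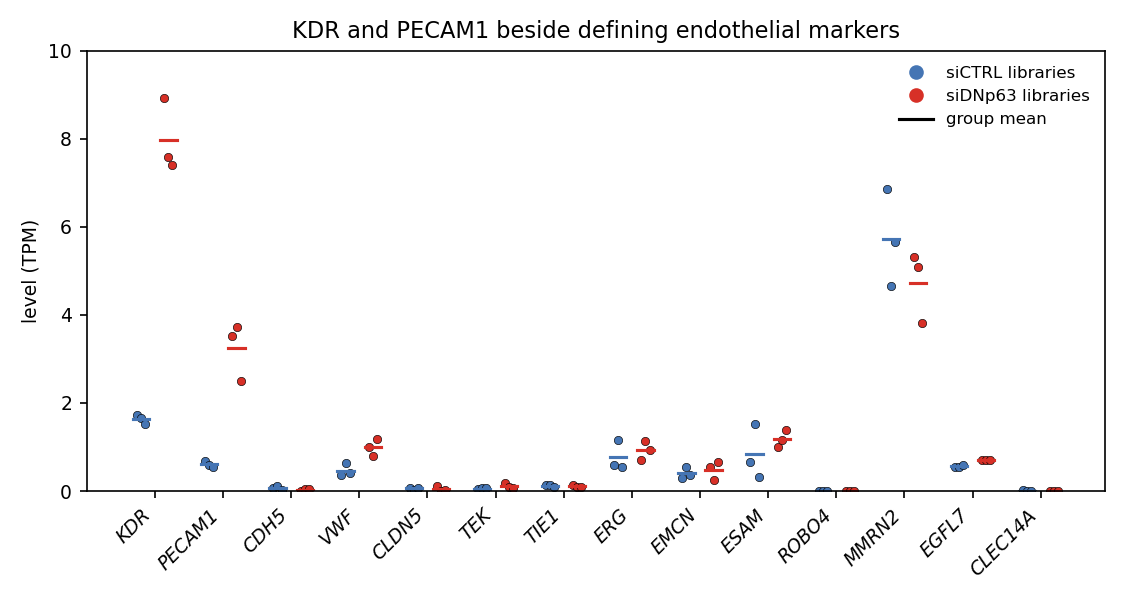
Level in TPM of KDR and PECAM1 and of 12 defining endothelial markers in the 3 siCTRL libraries (blue) and the 3 siDNp63 libraries (red), with a line at each group mean. KDR and PECAM1 were higher in every siDNp63 library, whereas CDH5, CLDN5, ROBO4 and CLEC14A lay at or near 0 in both groups, MMRN2 lay at 3.81 to 6.85 TPM and VWF was higher in siDNp63.

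PECAM1 is also found on leukocytes and platelets. The summed TPM of 20 markers of those cells was 21.2 to 23.5 in siCTRL and 18.5 to 19.4 in siDNp63, and 7 of them, with PF4, GP9, TYROBP and SPI1 among them, were at 0 in every library. CD68 (8.32 and 8.14 TPM) and CD163 (4.15 and 4.61 TPM) had the highest means. The 8 that were tested had a median log2 fold change of -0.54, against -0.02 over all genes. Of these 8, CD14 fell by 1.26 (adjusted p = 0.0329) and none rose, where 15.2% of all genes fell and 18.4% rose. But no marker of this list fell with at least 10 counts required in every library, with a replicate block, or without any 1 of siCTRL replicates 1, 2 and 3 or siDNp63 replicate 3. PTPRC, which marks all leukocytes, was at 0.267 TPM in siCTRL and 0.270 TPM in siDNp63.

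Of the fibroblast and mural markers 16 summed to 151 to 159 TPM in siCTRL and 118 to 177 TPM in siDNp63. Most of that was NOTCH3 (134 and 141 TPM), which carcinoma cells can also express, and PDGFRB, FAP and POSTN were at 0 throughout. Of the 9 tested, DCN fell by 1.32 (adjusted p = 0.0284) and none rose, but no marker of this list fell with DESeq2, with at least 10 counts required in every library, or without any 1 of siCTRL replicates 1, 2 and 3 or siDNp63 replicates 1 and 2, and 1 marker rose without siDNp63 replicate 1. The squamous epithelial markers summed to 8687 to 8959 TPM in siCTRL and 9847 to 10399 TPM in siDNp63, led by KRT6A (3071 and 3694 TPM). KRT19 (1764 and 1585 TPM) and KRT8 (565 and 925 TPM) came next. The list was not of squamous cells alone, as it held KRT8, KRT18, KRT19 and EPCAM, which other epithelia also express. Of all 18 markers in it 11 rose while 3 fell, TP63 itself among the latter. Over all genes tested 18.4% rose and 15.2% fell. The median log2 fold change was 0.04 for the 9 tested fibroblast and mural markers and 0.32 for the 18 epithelial markers, against -0.02 over all genes. KRT4, a keratin of mucosal epithelium, rose by 2.06 (adjusted p = 3.21e-06), and the epithelial keratin KRT18 and E-cadherin (CDH1) by 0.84 and 0.62 (adjusted p = 8.16e-06 and 1.07e-05). The list as a whole was thus high in both groups, but its keratins of basal cells were unlike in level. KRT5 was low at 7.08 TPM in siCTRL and 5.43 TPM in siDNp63, and KRT14 at 0.524 and 1.49 TPM. KRT15 was at 195 and 164 TPM, and KRT17 at 106 and 134 TPM. The part of the higher epithelial markers in the values of the VEGF genes was not tested.

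The genes whose log2 level followed those of the members most closely over the 6 libraries were ABHD17C, LRATD1 and INSIG1 for KDR, TMEM14A, CEACAM1 and TMEM98 for PECAM1, SYT13, APOL4 and TINF2 for NRP1, and KIFAP3, TIMP2 and CSGALNACT1 for NRP2. Pearson's r was at least 0.9988 in each case, over 13881 genes with a mean of at least 50 normalized counts. The 6 points share 2 groups, so r mainly records the step between them, and 475 genes for KDR, 260 for PECAM1, 512 for NRP1 and 414 for NRP2 came as close as an r over 0.99. The values are a description of likeness in these libraries.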

How the data were processed

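RNA was sequenced from 6 SCC90 libraries, 3 siCTRL and 3 siDNp63, grouped by their labels. The labels number the replicates but do not tie them to separate cultures, and p-values then measure only how far these libraries differ, possibly for technical reasons. According to the submitters' processing notes bcl2fastq 2.17.1.14, kallisto 0.46.2 and hg38 were used, with an annotation whose release was not given in the sources used here. Libraries were stranded, and kallisto was run with its default options, which use no strand setting. As deposited, the expected counts are estimates by kallisto, which the authors added up for each Ensembl gene with no scaling of the libraries. The authors also deposited TPM, scaled by length and depth. Of 40488 genes, 35538 matched a gene name table.

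Expected counts were rounded, filtered with filterByExpr (minimum count 10, 17257 genes left), scaled by TMM and fitted with the quasi-likelihood test of edgeR 4.0.16 in R 4.3.3, with group as the only term and Benjamini-Hochberg adjustment. Normalized counts are TMM-scaled. All adjusted p-values are of this two-sided test. The test was checked on simulated data. Alternatives were DESeq2 1.42.0, limma 3.58.1 (voom, and log2 of TPM plus 0.1), other scalings and filters, the p threshold of 0.005 of the study's methods, a replicate block and leaving out each library. Genes at a few counts are limited by counting error.

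The members and all gene lists were chosen with earlier results of these data known. Named beside the members were TP63, up to 4 genes with the smallest p among those past an adjusted p of 0.05 in each list, the 3 markers with the highest mean TPM, and the 3 genes with the highest r to KDR, PECAM1, NRP1 and NRP2. Other markers named for their counts, and the sequences shown, were chosen after values were seen. Coordinates are those of the GENCODE annotation of GRCh38. In it the spans of VEGFA, VEGFC, KDR, NRP1 and NRP2 overlap a gene on the other strand. Whether exons overlap was not checked, and with no strand setting the reads of any shared exon could not be told apart. None of those opposite genes was found in the deposited table.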

Additional observations from a re-analysis of the deposited data

How the results depend on the processing

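Over 139 recomputed fold changes of the members, 137 kept their sign, and the 2 that did not were both of PGF, at 0.15 with limma on log2 TPM and 0.14 without siDNp63 replicate 1. The cause was not tested. Its log2 fold change lay between -0.30 and 0.14 when 1 library was left out. KDR stayed between 2.22 and 2.41, PECAM1 between 2.22 and 2.53, and FLT4 between -0.57 and -0.22. VEGFC, FLT1, KDR, NRP1, NRP2 and PECAM1 were past both thresholds under every alternative run. Since the same contrast chose the list, nothing is read from this. With scaling by library size alone 5 genes of the processing list fell, against 3, and 3 of the semaphorin list rose, against 5. With limma on log2 TPM 5 of the processing list rose, against 9, 2 of the semaphorin list fell, against 5, and 4 of the hypoxia list rose, against 8. Leaving out 1 library gave 7 to 13 fallen transducers (7 without siCTRL replicate 1), 1 to 4 fallen genes of the processing list (1 without siCTRL replicate 2 or 3) and 4 to 9 of the other angiogenic list (4 without siCTRL replicate 2). In the semaphorin list 3 to 5 rose (5 only without siDNp63 replicate 1) and 3 to 5 fell (3 without siCTRL replicate 1 or 2). The labels do not say whether the replicate numbers pair the samples. The deviations of same-numbered libraries had correlations of -0.012, 0.017 and 0.027. No shared effect was visible, but with 3 libraries per group these values cannot settle whether the libraries were paired. With a replicate block 3 genes of the semaphorin list rose, while 389 of all genes were higher and 261 lower past both thresholds. The calls of the endothelial, leukocyte and fibroblast markers that were lost are given beside them. Depth limits PGF and the rare marker genes.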

Other observations

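In siDNp63 replicate 1, the library that stood apart from its group, KDR and FLT1 were 0.16 and 0.15 higher on the log2 scale than the mean of siDNp63 replicates 2 and 3, and the same differences were -0.20 for FLT4, -0.19 for VEGFB and -1.21 for PGF. NRP1, NRP2, PECAM1, VEGFA and VEGFC differed by at most 0.05.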
